A study of Ovis aries with 7 samples.

Results

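The hypothalami of 4 control sheep fetuses (Ovis aries, late gestation, chronically catheterized) were each measured on 1 Agilent sheep oligonucleotide array, labelled with the single dye Cy3. They are 4 of the 7 arrays of the study, and were taken by their titles, control replicates 1 to 4. In these pregnancies the ewe stayed at normal oxygen for 30 min and then for another 30 min, and the hypothalamus was collected at 60 min. The other 3 fetuses had 30 min of maternal ventilatory hypoxia before 30 min of recovery, and enter here only where the spread between animals is compared. All 7 fetuses carried catheters, so none is an unoperated animal. No strain, sex or exact age is given for any fetus, and no label says that animals or tissue were pooled.

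The hypothalamus joins the brain to the endocrine system. Its small neurons make peptides that drive or restrain the anterior pituitary (growth hormone releasing hormone, somatostatin, gonadotropin releasing hormone), its large neurons send oxytocin to the posterior pituitary, and its arcuate neurons (agouti-related peptide, neuropeptide Y, proopiomelanocortin) govern feeding. The anterior pituitary and its upward sleeve, the pars tuberalis, lie just below it, and the third ventricle with its ependyma and choroid plexus borders it.

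The array holds 15008 distinct 60-base probes. Of these, 1634 could be tied to a gene name, which gave 995 named genes, 562 of them with more than 1 probe. The level of a probe is the log2 of its processed signal minus the 75th percentile of the array's non-control spots, so a level of 0 is that percentile and a step of 1 is a doubling. A gene was read by its probe with the highest mean level. Probes differ in how well they bind and label, so an order of genes by level is an order of probe signals and not of transcript numbers. In whole tissue, fewer cells of a type and less RNA per cell cannot be told apart.

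Several of the results turn on genes whose probes are shown here, 30 of the 60 bases each, read 5′ to 3′ from the deposited scanner files. Capitals mark the bases that the other probe of the same gene also covers, and probes without such a partner are in lower case throughout.
OXT probe 1: cAGCCCTCACTCCCTCTGTAATCATCCCCA
OXT probe 2: AGCCCTCACTCCCTCTGTAATCATCCCCAG
GH probe 1: cTATGACAAATTTGACAGAAACATGCGCAG
GH probe 2: TATGACAAATTTGACAGAAACATGCGCAGT
PRL probe 1, bases 31 to 60: tccctggcaaACTTCTCTGAGCTTTATAGC
PRL probe 2: ACTTCTCTGAGCTTTATAGCtttttaatgc
CGA probe 1: cctgctttgagaatatactgcagctttatt
CGA probe 2: tcttttcatttggaatgaaatatggcattt
TTR probe: ggtggactcaaaggatgaaggacaggattt
ACTB probe: taaaagggctcaggaatccatcttcacaaa
ACTG1 probe: ttatattcggctctctcacctctgtagctg
The OXT probes are 1 base apart and share 59 of 60 bases, as do the GH probes, so the second is close to a repeat of the first. The PRL probes share 20 bases, and the CGA probes share no stretch at their ends, so for CGA the second probe reads another piece of the transcript. Over all 745 pairs of probes of 1 named gene, the mean levels of pairs sharing 50 bases or more (272 pairs) differed by a median of 0.11, and those of the 337 pairs that shared no end stretch of 8 bases differed by a median of 1.33.

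The 4 arrays were close to each other as a whole. Control replicates 1 and 2 lay on slide 2, and replicates 3 and 4 on slide 3, scanned at another time. Processed signals had 75th percentiles of 2024 to 2908, and the share of spots well above background (the scanner software's own flag) ran from 77.2% to 86.4%. Pearson's r between arrays, over the 11470 probes above background on all 4, was 0.986 to 0.991, a figure that a shared probe set keeps high. Named genes above background numbered 799, 827, 869 and 892 on control replicates 1, 2, 3 and 4. The slide 2 arrays thus had fewer detected genes than the slide 3 arrays.

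Most named genes gave a signal in every fetus. By any of their probes, 783 of the 995 named genes (78.7%) were well above background on all 4 arrays, 124 on 1 to 3 arrays and 88 (8.84%) on none. Among all probes the shares were close to these, 76.4% on all 4 and 11.9% on none. Of the 50 genes seen on 3 arrays only, 41 were missing on control replicate 1, 9 on replicate 2 and none on replicates 3 and 4. Of the 43 genes seen on 1 array only, 28 were seen on control replicate 4.

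The highest levels belonged to genes of protein synthesis and of basic cell upkeep. The 25 genes with the highest mean level ran from FTH1, the ferritin heavy chain that stores iron, down to AQP4, the water channel of astrocyte end-feet. FTH1 stood at 7.41, 7.54, 7.30 and 7.82 on control replicates 1 to 4 (mean 7.52 ± 0.22, SD, n = 4). UBB, a polyubiquitin gene, followed at 7.45 ± 0.20 (SD, n = 4). The next genes below the 25 were SCD5 at 5.41, GAPDH at 5.33 and RPL14 at 5.26.

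**Figure D1:**
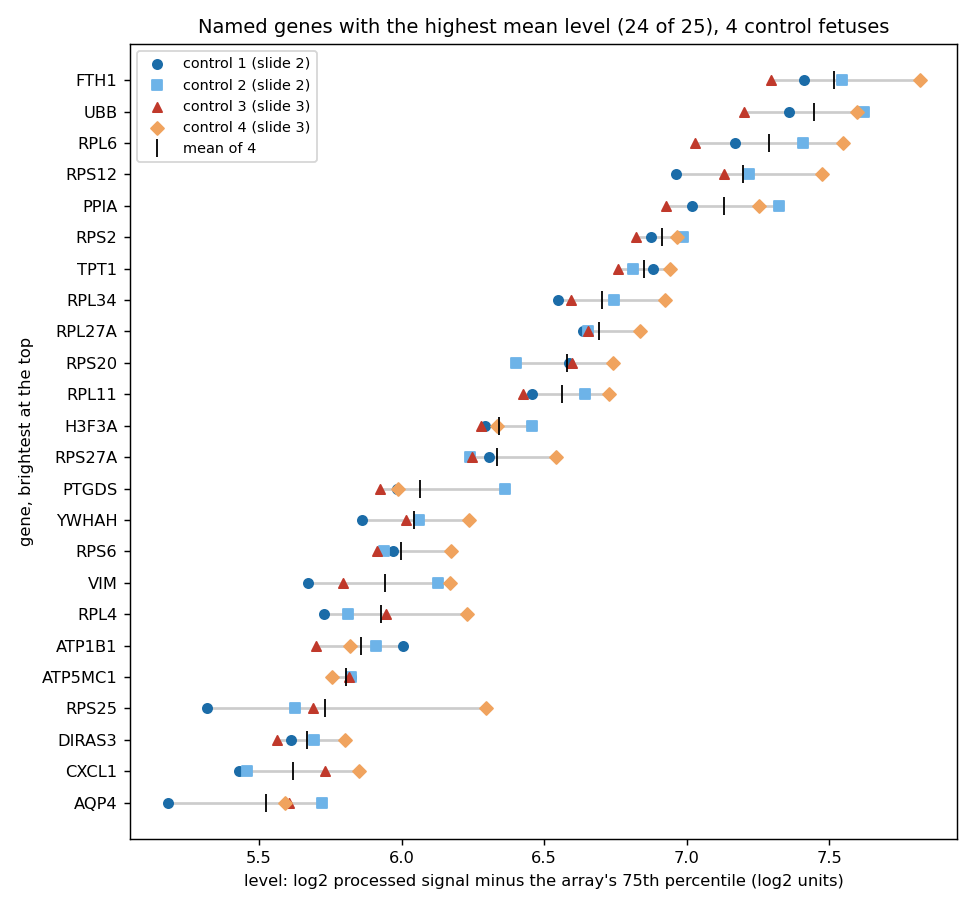
Genes among the 25 with the highest mean level over the 4 control fetuses, 24 of them drawn: each point is 1 fetus, marked by replicate and slide, the grey line spans the 4 values and the black tick is their mean, on a log2 axis where 0 is the array's 75th percentile. Every gene drawn spans less than 1 log2 unit between its highest and its lowest fetus, RPS25 the most with 0.98 by the probe drawn.

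Ribosomal proteins made up 12 of these 25 genes. Among them, RPL6 had a mean level of 7.29 ± 0.23, RPS12 of 7.20 ± 0.21, RPS2 of 6.91 ± 0.08 and RPL34 of 6.70 ± 0.17 (SD, n = 4). RPL27A, RPS20, RPL11, RPS27A, RPS6, RPL4 and RPS25 lay between 5.73 and 6.69. All 24 measured members of the list of cytosolic ribosomal proteins were above background on all 4 arrays, beside 78.7% of all named genes. Their median level was 5.50 against -2.84 over all named genes. The dimmest of the 24 was RPS15 at -4.35 ± 0.22 (SD, n = 4), and RPS25 itself had 2 further probes at -6.80 and -6.90, so a dim probe does not show a scarce transcript. Another bright RPS25 probe gave 5.58, 5.66, 5.49 and 5.90, with an SD of 0.18 against 0.41 for the read probe.

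The other 13 of the 25 covered several roles. TPT1, the translationally controlled tumour protein, had a mean level of 6.85 ± 0.08, and PPIA, the protein-folding enzyme cyclophilin A, 7.13 ± 0.19 (SD, n = 4). H3F3A, a replication-independent histone H3, stood at 6.34, YWHAH, a 14-3-3 adaptor protein, at 6.04, ATP1B1, the beta subunit of the sodium pump, at 5.86, and DIRAS3, a Ras-family GTPase, at 5.67. ATP5MC1, a subunit of the mitochondrial ATP synthase, had levels of 5.82, 5.82, 5.81 and 5.76, and its SD of 0.03 was the smallest of the 25. Another bright ATP5MC1 probe gave 5.82, 5.86, 5.58 and 5.71 (SD 0.13), and 2 more had means of -3.98 and -4.10 with SDs of 0.81 and 0.69. CXCL1, a chemokine that draws neutrophils, had levels of 5.43, 5.46, 5.73 and 5.85, so it was among the brightest probes of every resting fetus.

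Some genes of glia and of the ventricle wall were also among the brightest. PTGDS, the prostaglandin D synthase of the leptomeninges and choroid plexus, stood at 5.98, 6.36, 5.92 and 5.99, with control replicate 2 above the other 3. VIM, the intermediate filament vimentin of radial glia, tanycytes and vessels, had a mean level of 5.94 ± 0.25, and AQP4 of 5.52 ± 0.24 (SD, n = 4). The astrocyte list had 7 measured members, and all 7 were above background on all 4 arrays, beside 78.7% of all named genes. The glutamate transporters SLC1A3 and SLC1A2 had mean levels of -0.08 and -2.75, and the bicarbonate transporter SLC4A4 of -4.94, so the list ran from bright to dim probes. GFAP, the mature astrocyte filament, had levels of 0.40, 1.72, 0.84 and 0.92, highest on control replicate 2.

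The label hypothalamus was checked against the neuropeptide list. Of its 17 measured members, 16 were above background on all 4 arrays, beside 78.7% of all named genes. Lists of no particular tissue or of another one were also detected on every array (cell cycle 13 of 13, airway and lung 4 of 4), so this count alone does not mark the tissue. SST, the growth hormone inhibiting peptide somatostatin, was the brightest, with levels of 3.37, 4.11, 4.45 and 4.21. ADCYAP1, which encodes the peptide PACAP, stood at 3.61, 3.68, 3.62 and 4.42. TAC1 (substance P) followed with 1.65 ± 0.37, NPY with 1.61 ± 0.60 and POMC with 1.23 ± 0.57 (mean ± SD, n = 4).

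The arcuate feeding peptides NPY, AGRP and POMC shared 1 order of fetuses. AGRP had levels of -1.19, -1.90, -0.56 and -0.53, NPY of 1.35, 0.91, 1.92 and 2.27, and POMC of 0.90, 0.71, 1.34 and 1.99. From high to low, all ran replicate 4, 3, 1 and 2, with the highest fetus between 2.43-fold and 2.58-fold above the lowest. TAC1 and IGF2 also had this order, so it was not particular to feeding peptides. POMC is a member of the anterior pituitary list as well. GAL (galanin), TAC3 (neurokinin B), UCN (urocortin) and PMCH (melanin-concentrating hormone) lay between -0.44 and -4.62. None of these had that order: GAL ran replicate 4, 2, 3 and 1, and PMCH replicate 3, 4, 1 and 2. UCN differed little between fetuses, with an SD of 0.08.

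PENK, the proenkephalin gene, was the only measured member of the neuropeptide list above background on no control array, at -8.57, -8.99, -9.76 and -9.80. GHRL, the ghrelin gene, is not on that list and was also above it on none, by either of its 2 probes. PENK is read by a single probe, named from the description in the file. The orientation of that probe could not be checked, so its absent signal does not show an absent transcript. The list of hypothalamic peptide receptors also holds the binding protein CRHBP. Of its 19 measured members 13 (68.4%) were above background on all 4 arrays, beside 78.7% of all named genes. Their median level was -3.36 beside -2.84. CRHBP, which binds a releasing hormone and is no receptor, was brightest at 0.25 ± 0.30. The brightest receptors were SSTR2 at -1.25 ± 0.32 and TRHR at -1.94 ± 0.31 (SD, n = 4). GHSR, the ghrelin receptor, and GNRHR, the receptor of gonadotropin releasing hormone, were above background on none.

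Other neural lists were detected to different extents. All 13 measured members of the glutamate and GABA list were above background on all 4 arrays, beside 78.7% of all named genes. GRIA2, an AMPA receptor subunit, led them at 1.38 ± 0.12 (SD, n = 4). Of 23 receptors for metabolic, growth and sex hormones 17 (73.9%) were above background on all 4. NR3C2, the mineralocorticoid receptor, led these at 0.73 ± 0.22, then ESR1, an oestrogen receptor, at -0.18 ± 0.38 (SD, n = 4). The glucocorticoid receptor NR3C1 stood at -4.58 ± 0.48 (SD, n = 4). THRA, a thyroid hormone receptor, was above background on control replicate 3 only, and there by its read probe alone. The other THRA probe, which shares 56 bases with the read probe, was above background on no array, so the gene's probes disagree. NRGN and NEFH were the 2 measured members of the neuron list, above background on all 4 arrays at -2.95 and -3.17. No member of the oligodendrocyte list or of the thalamus and cortex list was measured, so neither could be checked.

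**Figure D2:**
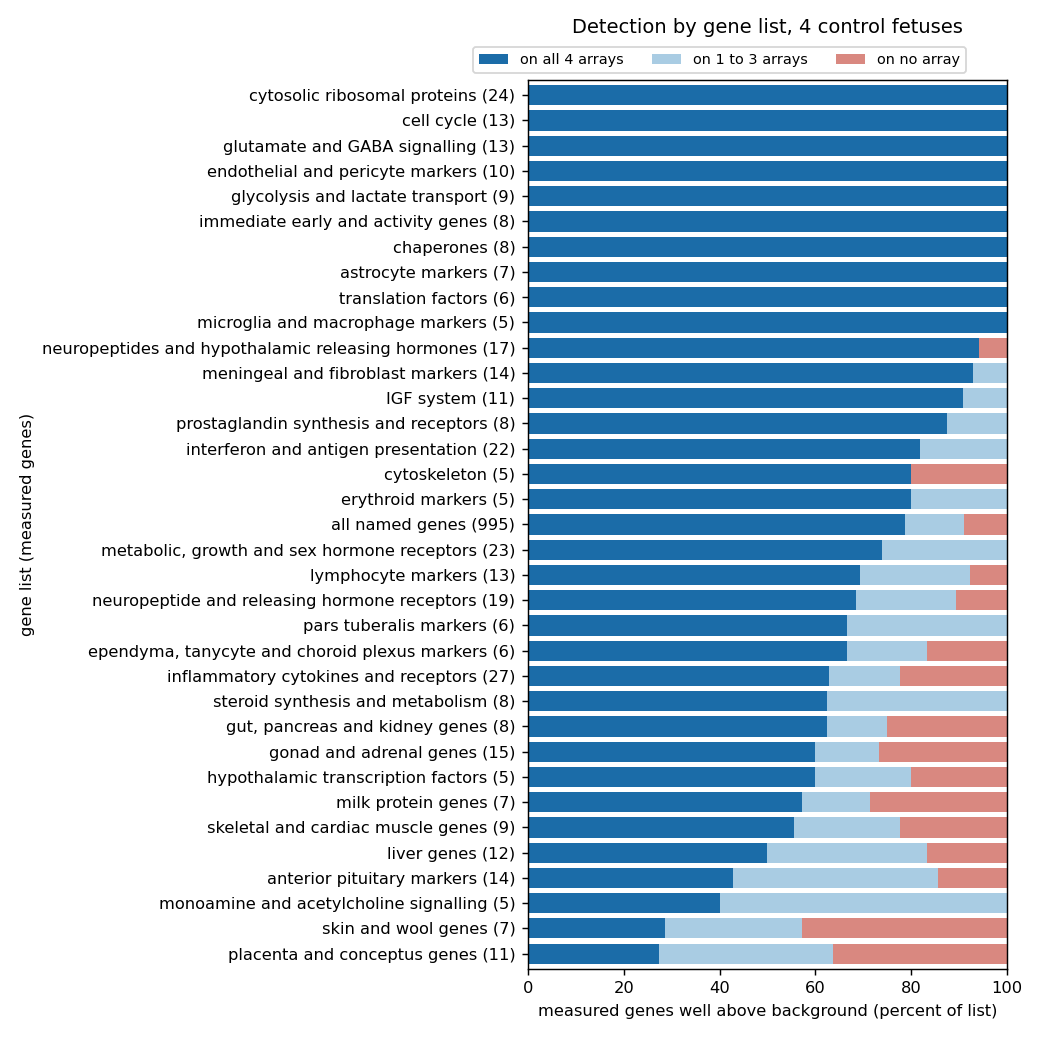
Share of the measured genes of each list that were well above background on all 4, on 1 to 3 or on none of the control arrays, for lists with at least 5 measured genes (the number is in brackets), in percent. Ribosomal proteins, cell cycle genes and glutamate and GABA genes are all detected on every array. The anterior pituitary list has 6 of 14 so detected and the placenta list 3 of 11, beside 783 of all 995 named genes.

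Of all named genes, 78.7% were above background on all 4 arrays and 8.84% on none. Genes known as products of other organs were in part above it and in part not. Those above it on none numbered 4 of 11 on the placenta and conceptus list, among them PAG4 and PAG7, pregnancy-associated glycoproteins, and CSH1, placental lactogen. On the milk protein list CSN1S1 and CSN1S2, alpha caseins, were above background on none, while CSN2, beta casein, stood at -1.27 ± 0.17 (SD, n = 4) and was above it on all 4. The other CSN2 probe, which shares 30 bases with the first, had a mean of -8.93 and was above background on no array, so the gene's probes disagree. Of 12 liver genes F2 and F9, clotting factors, were above background on none. TF, transferrin, was bright at 5.20 ± 0.62 and APOA1 at 2.51 ± 0.27 (SD, n = 4). The 12 are not genes of the liver alone, since TTR is also on the ependyma, tanycyte and choroid plexus list. SFTPC, known as a lung surfactant protein, had levels of 1.72, 1.01, 1.80 and 1.43, and the other 3 airway genes lay at -5.37 or below. Of 9 muscle genes MYH7 and MYF5 were above background on no array, but 5 were on all 4 (TNNC2, MSTN, MB, MYOD1 and MYOG, at -4.26 to -6.06). Of 7 skin and wool genes KRT25, KRT28 and KRTAP8-1 were above it on none. The gonad and adrenal list had 9 of 15 genes above background on all 4 arrays and 4 on none, with GDF9, an oocyte growth factor, at -1.53 ± 0.05 (SD, n = 4). The brightest of the 9 was OXT at 1.31, which is also on the neuropeptide list. The gut, pancreas and kidney list had 5 of 8 on all 4 and 2 on none. Its 5 include LYZ, which is also on the microglia and macrophage list.

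Immune signals were measured at rest too. Of 27 inflammatory cytokine and receptor genes 17 (63.0%) were above background on all 4 arrays, beside 78.7% of all named genes. NFKBIA, the inhibitor of NF-kappa-B, was brightest of the 27 at 0.43 ± 0.18, then CXCR4 at -1.80 ± 0.22 and CCL25 at -2.10 ± 0.32 (SD, n = 4). The chemokine CXCL1, described above, is not on this list and was brighter, with a mean of 5.62. IL4, IL13, CSF2 and CSF3 were among the 6 of these 27 that were above background on none, beside 8.84% of all named genes. All 5 microglia and macrophage markers measured were above background on all 4 arrays, led by CTSS at 1.25 ± 0.35 (SD, n = 4). The lymphocyte list had 9 of 13 members (69.2%) above background on all 4 arrays, also beside 78.7% of all named genes, and CD4 on none.

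The absent signal of ACTB, cytoplasmic beta actin, stands against a bright one of ACTG1, cytoplasmic gamma actin. The single ACTB probe shown above had levels of -8.35, -8.69, -9.38 and -9.22 and was above background on none of the 4 control or 3 hypoxia arrays. The ACTG1 probe had levels of 5.36, 5.21, 5.32 and 5.08, and its other 2 probes means of 5.03 and 4.34. These are signals of different probes and give no ratio of the actins. The orientation of the ACTB probe could not be checked. FURIN, a prohormone-cleaving enzyme, was also above background on no control array, while CPE, the carboxypeptidase that trims neuropeptides, stood at 5.07 ± 0.11 (SD, n = 4).

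The spread between fetuses was small for most genes and large for a few. Over the 780 named genes whose read probe was above background on all 4 arrays, the median SD was 0.21, and 87 of them had an SD over 0.5. For all 11470 such probes the median SD was 0.19. Repeat spots of 1 probe within 1 control array had a median SD of 0.094 (40 probes, 5 spots each, 152 values). Repeat spots leave out labelling and differences between arrays, so this is no measure of the noise between animals. The 25 genes with the largest SD ranged from 3.33 down to 0.80, and just below them came CATHL3 at 0.78, AHSP at 0.76 and LPAAT at 0.76. None of the 25 was among the 25 brightest, of which 17 had an SD under the median.

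**Figure D3:**
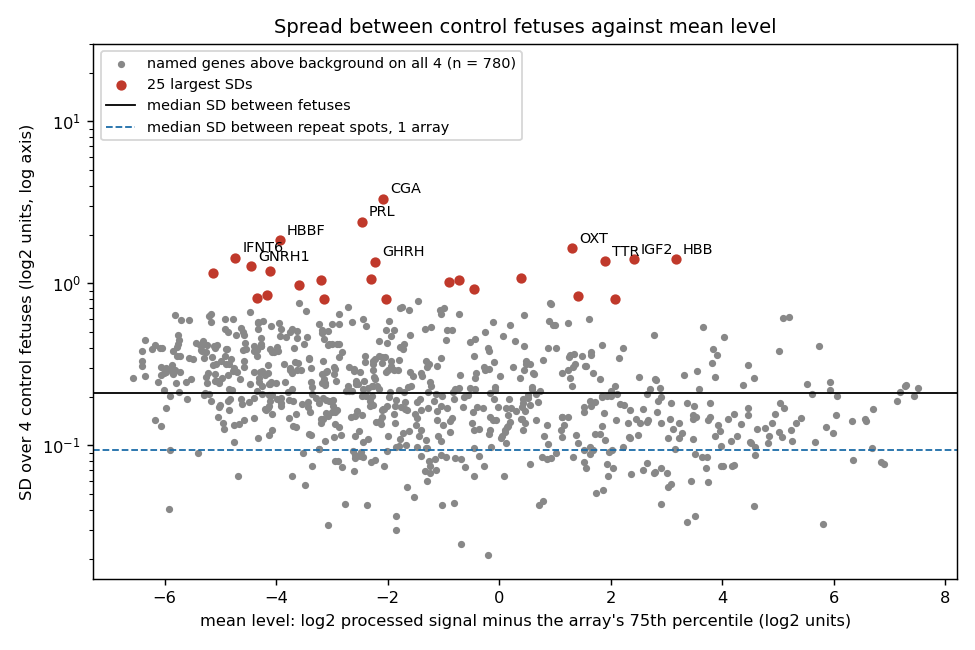
SD over the 4 control fetuses (log axis, log2 units) against mean level for the 780 named genes above background on all 4 arrays; the 25 largest SDs are red, the solid line is the median SD of 0.21 and the dashed line the median SD of 0.094 between repeat spots on 1 array. CGA and PRL have the largest SDs, and the 25 occur from dim to bright probes.

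Pituitary hormone genes had the largest differences between fetuses. CGA encodes the alpha subunit shared by the glycoprotein hormones, and is a marker of the pars tuberalis as well as of the pars distalis. It had levels of -0.74, -6.47, 1.39 and -2.50, a spread of 232-fold between control replicates 3 and 2, with an SD of 3.33. Its second, separate probe gave -1.12, -7.23, 1.44 and -2.55, the same order of fetuses. Without control replicate 2, where the read probe was above background but close to the lowest such level of that array (-6.79), the SD was 1.95.

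TSHB, the beta subunit of thyrotropin, had levels of -5.56, -9.09, -3.16 and -7.03. As for CGA, control replicate 3 was highest and replicate 1 next. TSHB was not well above background on replicate 2, whose detection limit lies above the level of replicate 4, so these 2 fetuses have no order. Against the detection limit of that array the level of control replicate 3 was at least 12.4-fold higher. TSHB was read by 1 probe, named from the file's description.

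PRL, prolactin, was high in 1 fetus only. Its levels were -3.72, -3.46, -3.80 and 1.13, so control replicate 4 stood apart and the other 3 lay within 0.35 of each other. The second probe gave -4.15, -4.12, -4.43 and 0.82. The SD of 2.40 became 0.18 without control replicate 4. GH, growth hormone, showed the same fetus: its levels were -8.28, -8.89, -9.73 and -1.82, and it was above background on control replicate 4 alone, at least 27.5-fold above the detection limit of the others. FSHB, the beta subunit of follicle stimulating hormone, stood at -6.09, -8.85, -9.60 and -3.09, above background on control replicates 1 and 4. On replicate 4 it was at least 13.0-fold above the detection limit of the 2 arrays where it was not above background.

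The rest of the anterior pituitary list did not move as 1 block. LHB, the beta subunit of luteinizing hormone, had levels of 2.11, 1.93, 2.30 and 2.31, and differed by 1.30-fold at most. Its second probe, which shares no end stretch with the first, gave -4.72, -4.60, -4.92 and -4.28, also highest on control replicate 4. POU1F1, the factor that drives the prolactin and growth hormone lineages, and GNRHR were above background on none, also on control replicate 4. Of the 14 measured members, 9 were highest on control replicate 4 and none on replicate 2, beside 319 of all 995 named genes highest on replicate 4. The 9 include POU1F1, which was well above background on no array, and LHB, whose levels on replicates 3 and 4 were 2.30 and 2.31. The summed linear signal of the list was 7.41, 6.01, 10.7 and 12.2 times the array's 75th percentile on control replicates 1 to 4. Most of it came from LHB and POMC. The part of pituitary tissue in these differences was not tested.

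**Figure D4:**
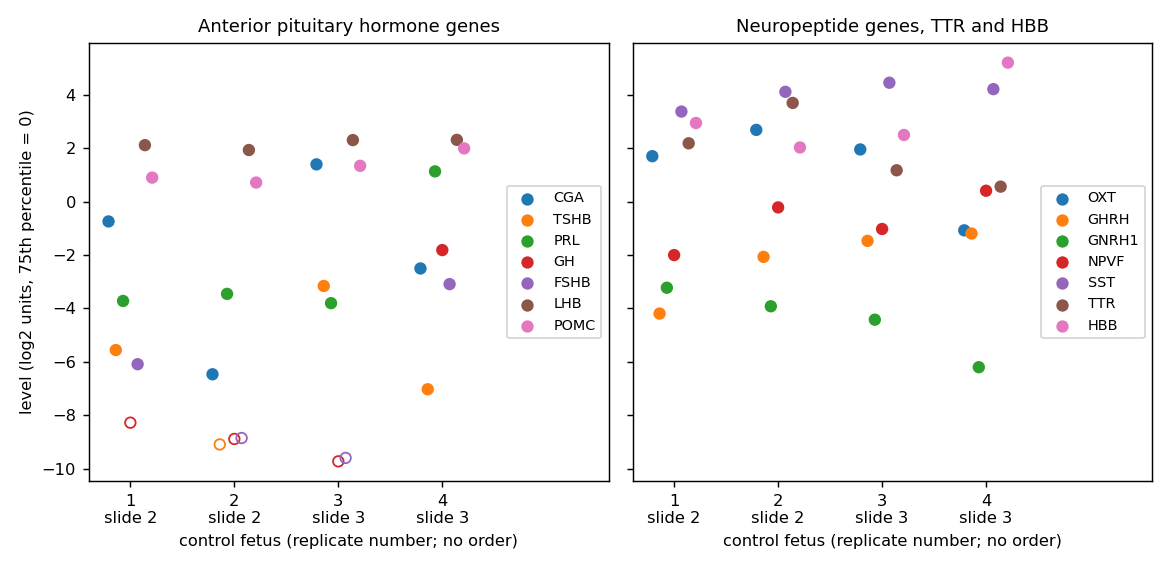
Levels of 7 anterior pituitary hormone genes (left) and of 5 neuropeptide genes with TTR and HBB (right) on each control array, in log2 units with the array's 75th percentile at 0; filled points are well above background and open points are not. PRL, GH and FSHB are highest in control fetus 4, and CGA and TSHB in control fetus 3.

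Peptides of the hypothalamus itself also differed between fetuses. OXT, oxytocin, had levels of 1.70, 2.68, 1.95 and -1.08, so control replicate 4 was low and the other 3 lay within 0.98 of each other; highest and lowest differed by 13.6-fold. Its near-identical second probe gave 1.84, 2.57, 1.88 and -1.12. The SD of 1.65 became 0.51 without control replicate 4. GNRH1, gonadotropin releasing hormone, was also lowest on control replicate 4, with levels of -3.23, -3.92, -4.42 and -6.20, and its SD of 1.27 became 0.60 without that array.

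GHRH, growth hormone releasing hormone, was low in another fetus. Its levels were -4.19, -2.07, -1.47 and -1.20, lowest on control replicate 1, without which the SD of 1.36 became 0.45. NPVF, the RFamide-related peptide gene, was likewise lowest on control replicate 1 and highest on replicate 4, 5.31-fold apart. GALR1, a galanin receptor, was high on control replicate 2 alone at -1.96, against -3.64 to -3.35 on the others. No fetus was thus low or high for all of these genes.

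Genes of the ventricle wall and of growth factor signalling did not share 1 order of fetuses. TTR, transthyretin, the thyroid hormone carrier made by choroid plexus, had levels of 2.18, 3.69, 1.17 and 0.56, and its SD of 1.37 became 0.82 without control replicate 2. AQP1, which the choroid plexus also makes, was above background on no control array by either of its 2 probes. IGF2, insulin-like growth factor 2, went the other way, with 2.59, 0.45, 2.86 and 3.76, lowest on control replicate 2, and an SD of 1.40 that became 0.61 without it. The second IGF2 probe, which shares no end stretch with the first, kept replicates 2 and 4 as lowest and highest, at -2.08, -4.40, -2.51 and -1.36. BMP4, a morphogen, and ALDH1A1, a retinoic acid making enzyme, were lowest on control replicate 2 and highest on replicate 4, with SDs of 1.18 and 1.07. The summed signal of the ependyma, tanycyte and choroid plexus list was 87.5 to 104 and that of the meningeal and fibroblast list 102 to 112. These lists share PTGDS, IGFBP2 and IGF2, and most of each sum came from PTGDS, so the sums say little of the other members. The median deviation of the meningeal and fibroblast genes from their own means was -0.04, -0.44, 0.15 and 0.16 on control replicates 1 to 4. For the ependyma, tanycyte and choroid plexus list it was 0.02, -0.04, 0.01 and 0.25. Over all named genes it was -0.02, 0.04, -0.04 and 0.04. The part of those cells in the differences was not tested.

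Globin genes were highest on control replicate 4. HBB, adult beta globin, had levels of 2.94, 2.03, 2.49 and 5.20, and HBBF, the fetal beta chain, of -5.05, -5.74, -3.29 and -1.66. Globin genes are near-identical copies, so a probe may read more than 1 of them. The second HBB probe was also highest on control replicate 4, at 4.47, but lay at -0.90 on replicate 3, against 2.49 and 1.61 on replicates 1 and 2. AHSP, which stabilises alpha globin, stood at -2.47 on control replicate 4 and between -4.09 and -3.72 on the others. The other erythroid genes had other high fetuses. CA1, the carbonic anhydrase of red cells, had levels of -5.26, -6.74, -5.96 and -5.83, highest on control replicate 1. EPOR, the erythropoietin receptor, had levels of -4.35, -4.05, -4.73 and -4.48, highest on replicate 2. The summed signal of the 5 measured erythroid genes was 37.4 on control replicate 4 and 4.22 to 7.86 on the other 3, most of it from HBB, and the SD of HBB became 0.46 without that array. The part of retained blood in other genes that were high on control replicate 4 was not tested.

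The remaining genes of the 25 belonged to secreted, immune and metabolic proteins. IFNT6, an interferon tau gene, had levels of -6.17, -2.74, -5.08 and -4.95; its second probe, sharing 59 bases, lay at -4.96 on control replicate 2, 2.22 below the first. CP, the copper carrier ceruloplasmin, was lowest on control replicate 1 and highest on replicate 2, with an SD of 1.15. PTGS2, the inducible cyclooxygenase, stood at -2.56, -3.30, -2.53 and -0.81, highest on control replicate 4. CATHL1B and SC5, antimicrobial cathelicidins, were highest on control replicate 3, at 0.91 and -0.94, and the SD of CATHL1B, 0.92, became 0.13 without that array. AHSG, the plasma protein fetuin A, was highest on control replicate 2 at 3.23 against 1.48 to 2.03 on the others. PPCS, INHBA, KLK1, SLC2A4, CNN1 and SLC11A1 had SDs of 0.81 to 1.05.

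**Figure D5:**
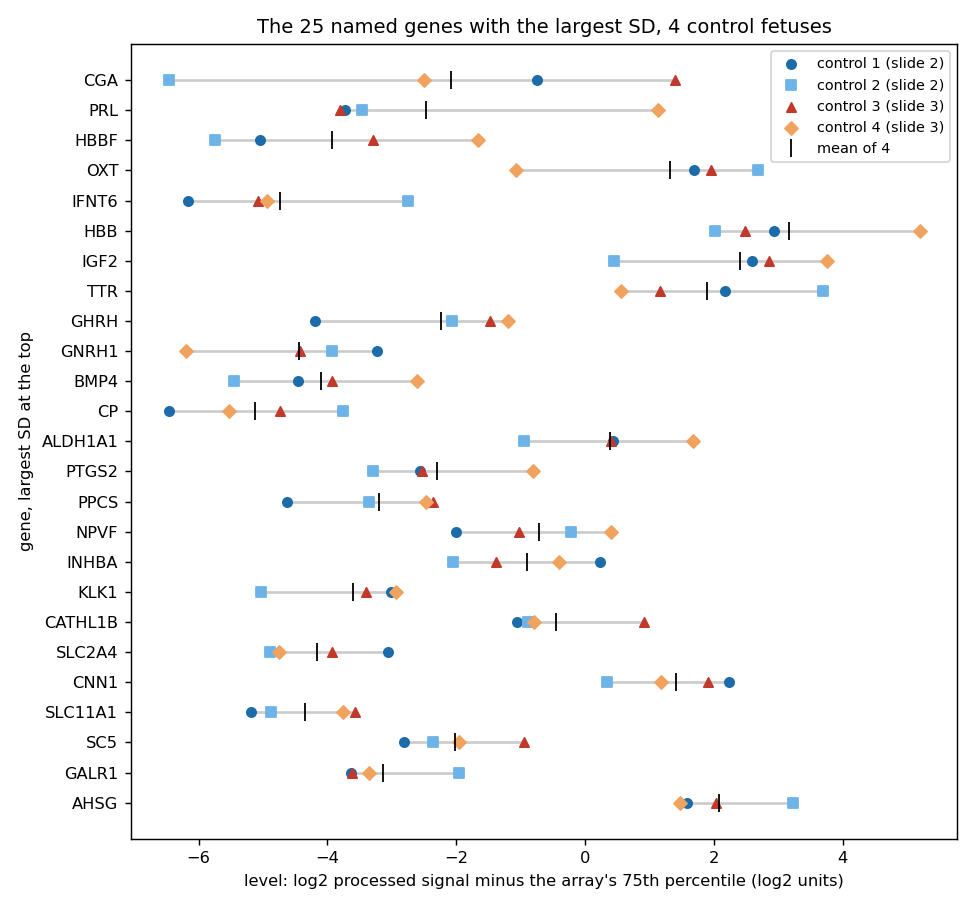
The 25 named genes with the largest SD over the 4 control fetuses, among those above background on all 4 arrays: each point is 1 fetus, marked by replicate and slide, the grey line spans the 4 values and the black tick is their mean, on a log2 axis. The fetus that is highest changes from gene to gene: control replicate 4 for 10 genes, replicate 2 for 6, replicate 3 for 5 and replicate 1 for 4.

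Of the genes above background on only some arrays, the 10 with the widest range included GH, FSHB, TSHB, SCNN1G, MYH2, SLPI, MYH1, COL6A1 and ACAN. SCNN1G, a sodium channel subunit, was above background on control replicate 1 only, at -4.14, at least 6.27-fold above the limit of the other 3. SLPI, a secreted protease inhibitor, was so on replicate 3 only, at -4.76. Of the myosin genes, MYH2 was above background on control replicates 1 and 4, at -5.84 and -5.63, and MYH1 on replicate 4 only, at -5.80. COL6A1, a collagen of connective tissue, stood at -4.00 on control replicate 4, but its second probe did not follow it, with -7.10 there and -6.92 on replicate 3. ACAN, the cartilage proteoglycan aggrecan, was above background on replicate 1 by 1 of its 2 near-identical probes.

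The genes that varied most among control fetuses could be set against animals that had no part in choosing them. Over the 3 hypoxia arrays the 25 genes had a median SD of 0.53, and the other 755 named genes one of 0.17; 14 of the 25 and 44 of the 755 had an SD over 0.5. CGA had levels of 0.35, -4.63 and 0.28 there, and TSHB of -3.97, -7.45 and -4.94. TSHB was well above background on 2 of the 3 arrays. TTR ranged from -1.77 to 3.49. HBB and PRL, each set apart by control replicate 4, had hypoxia SDs of 0.24 and 0.53, and GH was above background on no hypoxia array. These SDs have 3 animals and 1 slide behind them.

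The slides were the only technical batches the files gave among the control arrays. The labels also give ranges of RNA integrity number, dye (9.0 to 12.8 pmol Cy3 per ug) and cRNA (4.29 to 10.38 ug). These were not set against the spread between fetuses. Slide 3 was compared with slide 2 by limma's moderated test on 12695 probes above background on at least 2 of the 4 arrays, with 2 arrays a slide, 2-sided. At an adjusted p under 0.05 (Benjamini-Hochberg), 0 of the 1350 probes of named genes passed (0%), beside 2 of all 12695 probes (0.0158%). With no adjustment, at a p under 0.05, 97 of the named probes passed (7.19%), 73 higher on slide 3 (5.41%) and 24 lower (1.78%). Over all probes tested 1037 did (8.17%), 828 higher (6.52%) and 209 lower (1.65%), so the named probes lay near the background. Each slide holds 2 fetuses, so slide and fetus cannot be told apart here.

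The named genes with the smallest p were EGR1, RPS23, LPAAT, IL1RN, SLC11A1 and IL13RA1. RPS23 had levels of 1.55 and 1.58 on slide 2 and 0.23 and 0.32 on slide 3 (difference -1.29 ± 0.13, SE; limma adjusted p = 0.0891). LPAAT, an acyltransferase, stood at 0.19 and 0.32 against 1.56 and 1.57 (difference 1.31 ± 0.14, SE; limma adjusted p = 0.0891). SLC11A1, a metal transporter of macrophages, was the only one among the 25 most variable genes, with -5.19 and -4.87 against -3.57 and -3.76 (limma adjusted p = 0.138). The probes of EGR1, IL1RN and IL13RA1 were above background on both slide 3 arrays and on no slide 2 array, so no fold is given, since even their slide 3 means lay below the detection limits of slide 2. Their differences of 1.42, 1.49 and 1.82 turned to -0.24, -0.24 and -0.043 under the normexp background correction. EGR1's read probe, another one, stood at -1.12 ± 0.16 (SD, n = 4).

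Of the 25 most variable genes, 11 had both slide 3 arrays above or both below the slide 2 arrays (44.0%), and 14 did not. Over all 780 genes 304 had them so (39.0%), so the 25 lay near the background. CGA, PRL, OXT and HBB each had a large difference between the 2 arrays of slide 3, such as 3.90 for CGA levels of 1.39 and -2.50. For TTR the slide 3 arrays were both below the slide 2 arrays (difference -2.07 ± 0.57, SE; limma adjusted p = 0.463), and for HBBF both were above (difference 2.93 ± 0.62, SE; limma adjusted p = 0.324). Over the 780 genes, arrays of 1 slide differed by a median of 0.23 (slide 2) and 0.21 (slide 3), and arrays of different slides by 0.21 to 0.25.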

How the data were processed

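Total RNA of each hypothalamus, with integrity numbers of 7.4 to 8.4 over the study per the labels, was labelled with Cy3 and hybridised to 1 array. The spot intensities were made, per the file headers, by Feature Extraction 10.1.1.1, which subtracted background, corrected spatial trends and set low signals to a surrogate. The authors' deposited values are the log2 of this processed intensity, with no scaling between arrays. Here control spots were left out, saturated spots kept, repeat spots averaged, and each array was scaled to its 75th percentile. Outlier spots were left out of a probe's level unless all its spots were outliers, in which case they were kept. The 75th percentile and the SD between repeat spots include outlier spots.

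Gene names came from accessions (701 probes), gene IDs (125), symbols (495), synonyms (20), older names (181) and descriptions (41) through the RefSeq table of ARS-UI_Ramb_v3.0, and 71 probes kept the file's own symbol. Another 63 had a locus number only and 13311 no name. The genes named are the 25 brightest, the 25 with the largest SD, the 10 with the widest range among those seen on some arrays, members of fixed lists (the 3 brightest and up to 4 seen on none) and the 6 with the smallest p between slides; a few more are given for their role, and some are not reported here. The genes and lists were chosen with earlier results of these data known. For a fold marked "at least", the brightest array is set against the highest, over the arrays not above background, of the array's lowest level well above background or the probe's own level.

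Levels and spreads carry no test. The slide contrast used limma 3.58.1 (R 4.3.3, lmFit and eBayes); it compares 4 animals, and 4 arrays limit its precision. It was tested on 20 simulated sets of 12695 probes with 200 changed: 19.2% of probes changed 2-fold and 90.5% of those changed 4-fold passed, and 6.98% of calls were false. Alternatives were median and quantile scaling, the 75th percentile over detected probes, normexp with an offset of 50, another detection flag, the mean over a gene's probes, other filters, a trended and robust prior and leaving out each array; unscaled values and stricter naming were added after seeing the data.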

Additional observations from a re-analysis of the deposited data

Results flagged for a closer look

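Among the 60 genes whose levels are ranked in the report, 7 had 1 control array far from the other 3 by Dixon's gap test; chance flags about 1 in 20 such groups of 4, and the genes ranked by spread were chosen for such gaps. Control replicate 4 was the far array for 4 of them. PRL stood at 1.13 there against -3.80 to -3.46, COL6A1 at -4.00 against -7.50 to -6.91, RPL27A at 6.84 against 6.63 to 6.65, and ATP5MC1 at 5.76 against 5.81 to 5.82. The other bright ATP5MC1 probe was lowest on control replicate 3, at 5.58. Control replicate 2 was far for PTGDS, at 6.36 against 5.92 to 5.99, and for GALR1, at -1.96 against -3.64 to -3.35. Control replicate 3 was far for CATHL1B, at 0.91 against -1.05 to -0.79. The steps of RPL27A and ATP5MC1 to the nearest other array were 0.19 and 0.06, beside a median SD of 0.094 between repeat spots of 1 probe.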

How the results depend on the processing

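No paired analysis was possible because the levels and spreads describe 1 group, and the slide contrast is between unpaired control fetuses. Named genes above background on all arrays numbered 783, and 783 to 824 with 1 array left out; those above it on none numbered 88, and 89 to 116, but 19 with the software's weaker flag (signal positive and significant). The 87 genes with an SD over 0.5 became 51 with normexp, 34 among genes above the median level, 238 with no filter on detection and 77 to 100 with 1 array left out. Of the 25 brightest genes, 22 to 25 were kept over the alternatives computed; of the 25 most variable, 9 (no detection filter) to 25. Probes past the adjusted slide threshold, 2 in the report and both lower on slide 3, were 4 with quantile scaling (2 higher), 17 with normexp (15 higher), 20 with a trended and robust prior (17 higher, 2 of them probes of named genes, RPS23 and LPAAT), 0 with no filter on dim probes (1843 at an unadjusted p under 0.05) and 0 to 1 with 1 array left out, where the lone array of a slide is assumed to vary like the others. The unscaled deposited values gave 391 (389 higher, 30 of named genes) with a median difference of 0.36, against -0.01 after scaling and -0.11 with normexp. With normexp the differences of EGR1 (-0.24), IL1RN (-0.24) and IL13RA1 (-0.043) reversed; the cause was not tested. Signals near background limit all statements on dim probes.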

Other observations

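Interferon-stimulated, cell cycle and energy genes were not described above. ISG15, a ubiquitin-like interferon-induced protein, had levels of 0.11, -0.03, 0.35 and 1.38, highest on control replicate 4, and B2M, the light chain of class I antigen-presenting molecules, was steady at 4.21 ± 0.16 (SD, n = 4). All 13 measured cell cycle genes were above background on all 4 arrays, beside 78.7% of all named genes. CDK4, a G1 kinase, stood at -0.20 ± 0.02 and CDK1, the mitotic kinase, at -3.07 ± 0.51 (SD, n = 4). All 9 genes of glycolysis and lactate transport were above background on all 4 too, with a median SD of 0.13. They were led by GAPDH at 5.33, the glucose transporter SLC2A3 at 3.52 and ALDOA at 3.12.

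Both probes that passed the adjusted threshold between the slides are unnamed here and were looked at after their values were seen. The first, described in the file as like cattle ULBP4, had levels of -2.23 and -2.02 on slide 2 and -6.74 and -6.68 on slide 3 (limma adjusted p = 0.0438), and -2.42, -2.90 and -1.12 on the 3 hypoxia arrays. The other, an expressed sequence with no description, had 0.63 and 0.57 against -4.69 and -4.28 (limma adjusted p = 0.0438). On the hypoxia arrays, which share 1 slide, it stood at -4.69, -4.41 and 0.44, so high and low values of it occurred within a slide. Probes of the named genes had a median GC content of 45.0% for those above background on all 4 arrays, 44.2% for those of genes above it on none, 41.7% for the 25 brightest and 40.0% for the 25 most variable.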
